A study of Mus musculus with 4 samples.

Results

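The regions described here were chosen by their measured values: they are the 300 with the highest plain mean of the Treg, Th1 and naive values in a table of 10000 regions of mouse genome build mm9. Equal means were ordered by the lower region number. The table comes from a methylated-DNA capture study in which 4 populations of CD4+ T cells, sorted from spleen and lymph nodes of Balb/c females, gave 1 library each. All cells received PMA (10 ng/ml) together with ionomycin (500 ng/ml) for 3 h. Th17 cells had low CD45RB and secreted IL-17A without interferon gamma, Treg cells carried high CD25 and were sorted before stimulation, Th1 cells were CD45RB low, with interferon gamma and without IL-17A, and naive cells had high CD45RB. No further genotype, age or treatment is given in the labels, and a methylation table of this kind holds no expression with which to check the sorted cell types. The Th17 library is listed at 0 in all 10000 regions, so it enters no value below, and the top 300 regions are high among regions that are listed at 0 in Th17.

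In mammals, DNA methylation is placed mainly on cytosines that precede a guanine, the CpG dinucleotide. A methyl-CpG-binding domain protein pulls down fragments by the methyl groups they carry, so a region gains reads when it is methylated, when it holds many CpGs and when it is long enough for many fragments to cover it. Gene bodies of mammalian cells are generally methylated, while CpG-rich promoters are mostly free of methylation. A high value is therefore a high capture signal, which is not the same as a high methylation level per cytosine.

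A region's value is a scaled number of reads, as deposited by the authors. One read was worth 0.352 in the Treg library, 1.68 in the Th1 library and 0.996 in the naive library. In the mean that ranks the regions, 1 more read therefore counts 0.117 if it is a Treg read, 0.560 if it is a Th1 read and 0.332 if it is a naive read. In the table as a whole the libraries held 74571 Treg, 19548 Th1 and 34277 naive reads. With 1 library per population there was no replicate and no test between populations. All intervals are exact intervals at 95%, Poisson for reads and Clopper-Pearson for shares, and cover counting error only.

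Sequence could be shown only for promoters, since no mm9 genome was used here. Of the 19 top regions assigned to promoters, 10 belong to genes with a RefSeq promoter window (build GRCm38.p6, 250 bases before to 50 after the gene's start). If the offsets in the table count from the gene's start in RefSeq, 0 of these 10 regions overlap their window. By offset alone, 6 of all 19 overlap a window of that span, each in a gene without a RefSeq window. The point of origin of the offsets is not named, so the windows are given as sequence at the gene's start and not as the captured region. Across the 12 windows of these 10 genes the number of CpGs ran from 0 to 26, with a median of 13, against a median of 9 in the 342 windows of all genes with a promoter region in the table and of 7 in all 32851 RefSeq windows. At least 1 CpG stood in 91.7% of the 12 windows and in 94.6% of all windows. The 3 windows below are shown because they include the CpG-free window and a CpG-dense one, with each CpG (the letters CG, which read the same on both strands) in capitals.
Ltb4r1, 3 CpGs, chr14:55765712-55766011, plus strand: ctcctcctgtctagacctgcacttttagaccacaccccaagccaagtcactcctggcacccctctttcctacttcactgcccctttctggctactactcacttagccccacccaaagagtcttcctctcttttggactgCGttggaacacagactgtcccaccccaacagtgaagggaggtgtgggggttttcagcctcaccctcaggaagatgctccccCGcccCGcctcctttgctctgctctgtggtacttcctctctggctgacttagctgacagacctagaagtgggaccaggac
Heatr7b1 (RefSeq symbol Mroh2a), 0 CpGs, chr1:88226770-88227069, plus strand: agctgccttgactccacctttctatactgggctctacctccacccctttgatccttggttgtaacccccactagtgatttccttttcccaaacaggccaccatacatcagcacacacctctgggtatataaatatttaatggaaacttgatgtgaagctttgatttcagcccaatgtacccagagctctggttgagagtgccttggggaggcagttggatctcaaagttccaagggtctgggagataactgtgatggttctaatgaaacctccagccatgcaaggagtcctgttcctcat
Slc27a2, 25 CpGs, chr2:126552774-126553073, plus strand: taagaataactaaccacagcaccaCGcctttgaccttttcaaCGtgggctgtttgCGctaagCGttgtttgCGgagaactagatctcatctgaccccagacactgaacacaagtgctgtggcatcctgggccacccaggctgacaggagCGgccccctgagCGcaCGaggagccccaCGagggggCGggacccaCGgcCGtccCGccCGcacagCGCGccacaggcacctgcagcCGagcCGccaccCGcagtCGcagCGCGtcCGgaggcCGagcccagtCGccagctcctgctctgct

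Ltb4r1 encodes a receptor for leukotriene B4 on leukocytes. Its captured region was assigned to exon 1 with its centre at an offset of 254 bp, and that of Heatr7b1 lay at an offset of -523 bp. Slc27a2, a fatty acid transporter and very-long-chain acyl-CoA synthetase, had its region at an offset of -866 bp. That lies outside its CpG-dense window if the offset counts from the gene's start. The sign of the offset follows the table, which does not name its point of origin. In 5 of 5 genes with a pair of promoter regions, the difference between the offsets matched the distance between the midpoints within 1 bp.

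The 300 regions had means from 4.85 to 10.8, with a median of 5.29. The other 9700 regions had means from 0.664 to 4.85, with a median of 3.04. The top 300 make up 3% of the regions and 5.30% of the summed signal, and no gap in the mean separates them from the rest. Their total reads ran from 13 to 38, with a median of 20. The threshold fell inside a tie of 13 regions with the same reads in each library, of which 2 are in and 11 are out. Acvr1, a receptor for bone morphogenetic proteins, and Gm13293 were the last inside, with values of 3.17 in Treg, 8.40 in Th1 and 2.99 in naive. Introns of 6430710C18Rik, 4931422A03Rik, Mybl2, Cdc14a and Mtus2 followed outside with exactly those values. Npr3, Abcg8 and Rbm20, just above the tie, had 3.88, 6.72 and 3.98 in the same order. Membership near the threshold thus rests on the region number alone.

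The highest mean, 10.8, belonged to an intron of C130026I21Rik (ENSMUSG00000052477, chromosome 1, 85081415 to 85081796). Its value was 6.34 in Treg (interval 3.76 to 10.0), 15.1 in Th1 (6.92 to 28.7) and 11.0 in naive (5.47 to 19.6). It was high in all 3 libraries, and the 3 intervals overlap. A second intronic region of the same gene (85101879 to 85102290) had 2.82 in Treg, 10.1 in Th1 and 3.98 in naive. The gene had 3 regions in the table, and whether its reads match more than 1 place in the genome was not examined.

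SNORD116, which belongs to a repeated family of imprinted small nucleolar RNAs, came next with a promoter region of 180 bp (ENSMUSG00000075936, chromosome 7, 67004473 to 67004652). Its value was 2.11 in Treg (interval 0.776 to 4.60), 5.04 in Th1 (1.04 to 14.7) and 17.9 in naive (10.6 to 28.3). Here naive was the highest library. Its interval does not overlap that of Treg but overlaps that of Th1. It was also the shortest of the 300 regions, and whether its reads match more than 1 place in the genome was not examined. Arhgap22, which encodes a GTPase-activating protein, had 5.64 in Treg, 11.8 in Th1 and 5.98 in naive in an intron on chromosome 14 (34171651 to 34172044).

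Th1 was the highest library in the next 3 regions. The promoter and exon 1 of Gm5244, a pseudogene in RefSeq, had 3.17 in Treg, 13.4 in Th1 and 5.98 in naive (chromosome 19, 12921257 to 12921559). An intron of Mylk2, the myosin light chain kinase gene of skeletal muscle (chromosome 2, 152741559 to 152741966), and exon 4 of Ncln, whose product nicalin sits in the endoplasmic reticulum membrane (chromosome 10, 80955355 to 80955716), both had 3.52 in Treg, 13.4 in Th1 and 4.98 in naive. In each of the 3 regions Th1 gave the highest value from 8 reads, but its interval, 5.81 to 26.5, overlapped those of the other libraries.

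Naive was the highest library in 3 of the remaining regions among the first 10. An intron of Sfi1, a centrosome protein gene, had 2.82 in Treg (interval 1.22 to 5.56), 6.72 in Th1 and 11.95 in naive (6.18 to 20.9), so that the Treg and naive intervals lie apart (chromosome 11, 3047960 to 3048263). An intron of 2610005L07Rik, a transcribed pseudogene in RefSeq, had 7.05 in Treg, 3.36 in Th1 and 11.0 in naive (chromosome 8, 19962997 to 19963429). Abcc4, an efflux pump for drugs and nucleotides, had 4.58, 6.72 and 9.96 in the same order in an intron (chromosome 14, 118930097 to 118930483). The lowest library differed among them, since Treg was the lowest library in Sfi1 and Abcc4 and Th1 was the lowest in 2610005L07Rik. Exon 3 of 4930465M20Rik, a long non-coding RNA gene, completed the first 10 with 5.29 in Treg, 10.1 in Th1 and 5.98 in naive (chromosome 12, 108962425 to 108962970).

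**Figure D1:**
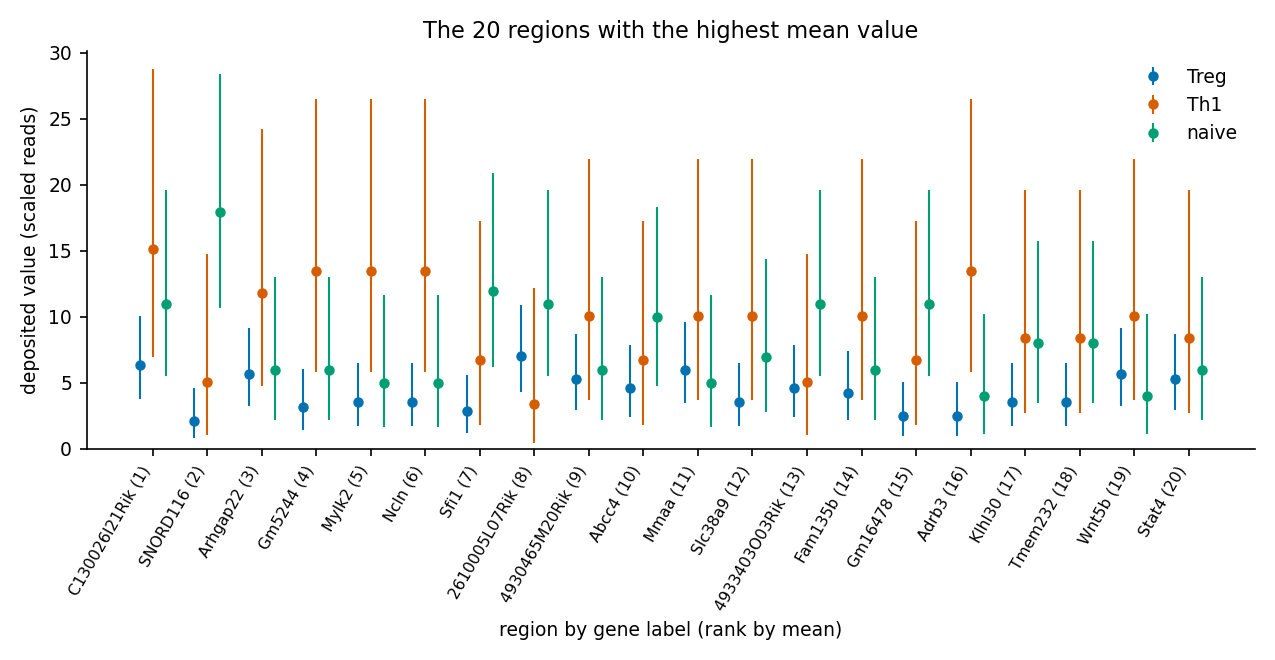
Deposited value (scaled reads, vertical axis) in the Treg, Th1 and naive libraries for the 20 regions with the highest mean, labelled by gene and rank; points are values from 1 library each and bars are exact 95% Poisson intervals. The Th1 bars are the longest, since 1 Th1 read is worth 1.68, and SNORD116 stands out by its naive value of 17.9.

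All 300 regions were read in all 3 libraries, against 85.5% of the other regions. Values over the 300 ran from 0.705 to 8.81 in Treg with a median of 3.88, from 1.68 to 15.1 in Th1 with a median of 6.72, and from 0.996 to 17.9 in naive with a median of 4.98. The mean value was 3.79 in the top 300 and 2.59 in the other regions for Treg, 7.502 and 3.16 for Th1, and 5.18 and 3.36 for naive. Th1 thus lay furthest above the other regions, by 2.38 times, against 1.46 times for Treg and 1.54 times for naive. These values chose the members and are a description only. Of all signal in the 300 regions, Treg gave 23.0%, Th1 45.5% and naive 31.4%, while in the other regions they gave 28.5%, 34.6% and 36.9% in the same order.

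By reads, all 17 regions of the table with 7 or more Th1 reads were members, as were 48 of the 81 regions with 6 Th1 reads and 74 of the 280 with 5. Of the 7 regions with 11 or more naive reads all were members, but of the 20 with 9 naive reads only 8 were. At the low end, 4 members had a single Th1 read, among them Wnt11, a secreted Wnt ligand gene chosen for mention after its values were seen, with 6.34 in Treg, 1.68 in Th1 and 8.97 in naive (exon 6, chromosome 7, 106001517 to 106001924).

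The median region of the top 300 drew 23.1% of its summed value from Treg (quartiles 17.7% and 28.1%), 45.3% from Th1 (36.7% and 55.3%) and 31.4% from naive (23.4% and 39.2%). In the other regions the median shares were 28.0%, 33.1% and 36.8%. Th1 gave at least 50% of the sum in 115 of the 300 regions, or 38.3% (interval 32.8% to 44.1%), and the share of the whole table past that limit was 18.4%. Naive gave at least 50% in 16 regions, or 5.33%, against 24.2% of the table, and Treg in 1 region, against 6.10%. No library reached 50% in 168 regions, or 56%, against 51.4% of the table. Since these values chose the members and the mean weighs a Th1 read most, nothing is read from these counts about the cell types.

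**Figure D2:**
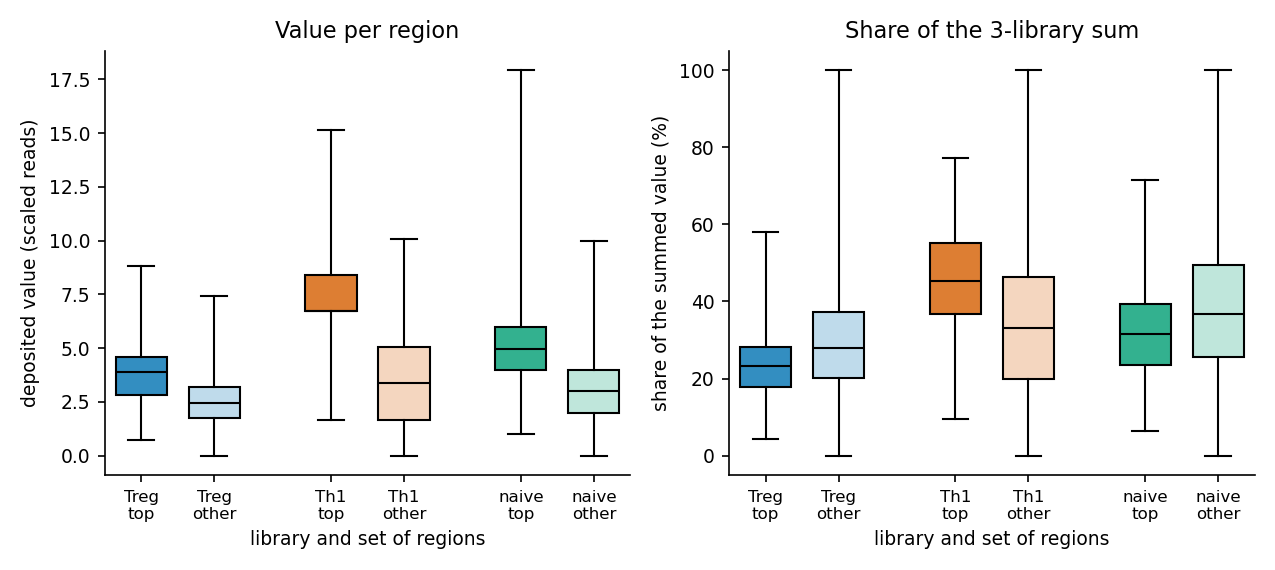
Boxes show the median and quartiles, and whiskers the lowest and highest region, of the deposited value (left, scaled reads) and of the share of the summed value (right, %) in Treg, Th1 and naive, for the top 300 regions (dark) and the other 9700 (pale). The Th1 box rises most in the top 300, where its median value of 6.72 equals the lower quartile because reads come in whole steps.

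By a 2-fold rule (a log2 ratio of at least 1 in size, with 0.5 added to both values), Treg was lower than Th1 in 129 of the 300 regions, or 43.0%, against 21% of the whole table, and higher in 4, or 1.33%, against 17%. Treg was lower than naive in 63 regions, or 21%, against 22.2% of the table, and higher in 13, or 4.33%, against 8.33%. Th1 was higher than naive in 83 regions, or 27.7%, against 19.4%, and lower in 12, or 4%, against 29%. In 118 regions, or 39.3%, all 3 pairs lay within 2-fold, against 33% of the table.

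Counting error was wide beside these ratios. Poisson intervals lay apart between Treg and Th1 in 12 of the 300 regions, or 4%, all with Treg lower, against 0.38% of the table. Between Treg and naive they lay apart in 5 regions, again all with Treg lower, or 1.67%, against 0.66% of the table. The 5 were regions of SNORD116, Sfi1, Gm16478, Lmo7 and Ankmy1. Between Th1 and naive they lay apart in 0 of the 300, with 0.08% of the table apart with Th1 higher and 0% with Th1 lower. An intron of Ankmy1 (chromosome 1, 94784020 to 94784346) was in both sets, with 0.705 in Treg from 2 reads, 8.40 in Th1 and 6.97 in naive. The counts of intervals apart and those by the 2-fold rule both use the values that chose the members. Since the mean weighs a Th1 read most and a Treg read least, nothing is read from them about the cell types.

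The most uneven regions differed by library. The largest Treg share, 58.1%, was in exon 11 of Pdxk-ps, a pyridoxal kinase pseudogene, with 8.81 in Treg, 3.36 in Th1 and 2.99 in naive. It was the only region with more than 50% from Treg. Introns of Fndc3b and of Zfp423, a zinc finger transcription factor gene, followed with Treg shares of 48.0% and 47.3%. The largest Th1 share, 77.3%, was in an intron of Ehbp1, an EH-domain-binding protein gene, with 2.47 in Treg, 11.8 in Th1 and 0.996 in naive. Introns of Dnajc1, a co-chaperone gene, and of Asap1, which encodes a GTPase-activating protein for Arf GTPases, followed with Th1 shares of 76.6% and 72.8%. SNORD116 had the largest naive share, 71.5%, before an intron of Phactr2, an actin regulator gene, with 65.7% and the promoter of Heatr7b1 with 61.1%. At the even end, an intron of Lmf1, a lipase maturation factor gene, had 4.93 in Treg, 5.04 in Th1 and 4.98 in naive. Introns of 4930467D21Rik and of Slc15a4, a peptide and histidine transporter of endolysosomes, both had 4.58, 5.04 and 4.98. All 3 even regions rest on 3 Th1 and 5 naive reads.

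Ranking by 2 libraries and reading the level in the library left out gives a value that the ranking did not use. Ranked by Th1 and naive, the top 300 regions had a mean Treg value of 2.87 (interval 2.75 to 2.98), against 2.62 (2.602 to 2.64) in the rest, a ratio of 1.09 (1.05 to 1.14). Ranked by Treg and naive, the top 300 had a mean Th1 value of 3.52 (3.25 to 3.81), against 3.28 (3.23 to 3.33), a ratio of 1.07 (0.991 to 1.16). Ranked by Treg and Th1, the top 300 had a mean naive value of 2.87 (2.68 to 3.07), against 3.43 (3.39 to 3.47), a ratio of 0.837 (0.782 to 0.896). High signal in a pair of libraries therefore went with a slightly higher level in Treg, with a Th1 difference within counting error and with a lower level in naive. In each ranking the libraries that set it stood 1.46 to 2.74 times above the rest.

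Across the 10000 regions, Spearman's rank correlation was -0.22 between Treg and naive, -0.27 between Th1 and naive and 0.02 between Treg and Th1. These describe regions that share 3 libraries with few reads each, and how the regions of the table were chosen is not given. With 100 regions kept, the ratios for Treg and Th1 were 1.17 and 1.24, and with 600 they were 1.03 and 0.928. The Th1 ratio lay above 1 beyond counting error with 100 regions and below 1 with 600. Ranked by value per kb, all 3 ratios lay below 1, at 0.756 for Treg, 0.598 for Th1 and 0.780 for naive. Of the 300 regions ranked by all 3 libraries, 207 were also in the top 300 without Treg, 125 without Th1 and 155 without naive. Only 32 were in the top 300 of all 3 rankings by 2 libraries. These 32 include C130026I21Rik, Arhgap22, Abcc4, Mmaa, which serves vitamin B12 metabolism, Slc38a9, a lysosomal amino acid transporter, and Stat4.

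**Figure D3:**
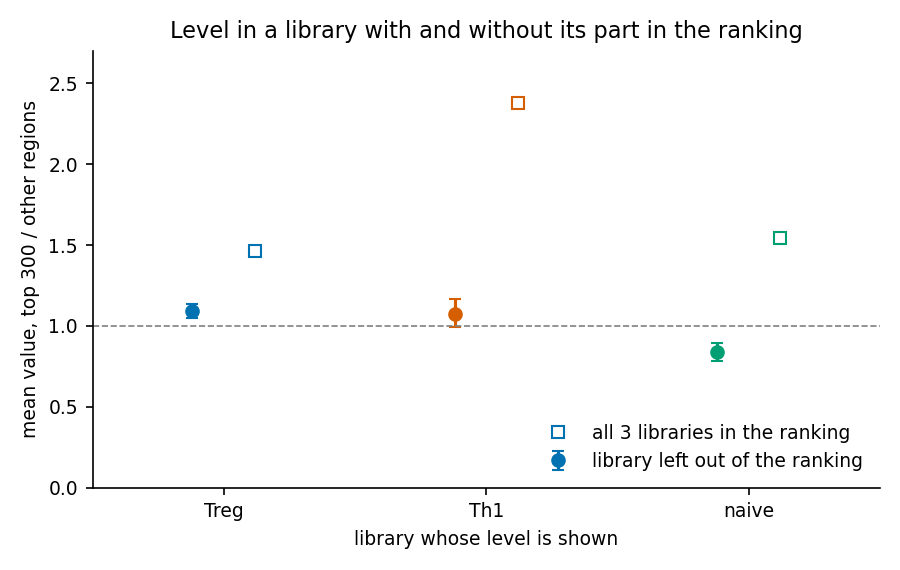
Ratio of the mean value in the top 300 regions to that in the other regions, for Treg, Th1 and naive; filled circles leave that library out of the ranking (bars are exact 95% intervals of the ratio of reads) and open squares rank by all 3 libraries. The squares lie at 1.46, 2.38 and 1.54 and the circles at 1.09, 1.07 and 0.837, around the dashed line of no difference.

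By location, 205 of the 300 regions lay in introns, or 68.3% (interval 62.7% to 73.6%), against 79.0% of the other regions. Exons held 76, or 25.3% (20.5% to 30.7%), against 16.3%, and promoters held 19, or 6.33% (3.86% to 9.71%), against 4.72%. Ranked by value per kb instead, exons held 16.7% of the top 300. Regions of 1 gene share their source, so these intervals treat as separate what may not be. Among the 76 exonic regions the median exon number was 5, against 6 in all exonic regions of the table, with 2 in exon 1, 14 in exon 2 and 13 in exon 3, and the highest was exon 89. The median Th1 share was close in the 3 locations, at 45.4% in introns, 45.3% in exons and 45.0% in promoters. Th1 gave at least 50% of the signal in 80 of 205 intronic, 29 of 76 exonic and 6 of 19 promoter regions, and naive in 9, 3 and 4. The values counted here chose the members, and the same counts were not made for each location of the whole table. Nothing is therefore read from them about the locations.

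The highest promoter regions after SNORD116 and Gm5244 were those of 4933403O03Rik (chromosome 10, 57690938 to 57691209) with 4.58 in Treg, 5.04 in Th1 and 11.0 in naive, and of Gm16478, a pseudogene in RefSeq, with 2.47, 6.72 and 11.0 (chromosome 7, 58425852 to 58426266). Adrb3, the beta-adrenergic receptor gene of fat cells, had 2.47 in Treg, 13.4 in Th1 and 3.98 in naive at an offset of -329 (chromosome 8, 28340249 to 28340529). Naive was the high library in the first and second of these and Th1 in Adrb3. Over all 19 promoter regions the offset ran from -1834 to 452 with a median of -523, and 5 lay past the reference point. In the whole table the median offset of 477 promoter regions was -851.

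The highest exonic regions after Ncln and 4930465M20Rik were exon 7 of Klhl30, exon 2 of Fabp5 and exon 6 of Cyp20a1. Klhl30, a Kelch-like gene, had 3.52 in Treg, 8.40 in Th1 and 7.97 in naive (chromosome 1, 93255757 to 93256127). Fabp5, a fatty acid-binding protein gene, had 2.82 in Treg, 13.4 in Th1 and 2.99 in naive (chromosome 3, 10014670 to 10015118). Th1 was the highest library in Fabp5, but its interval (5.81 to 26.5) overlaps that of naive (0.616 to 8.73). In Klhl30 the Th1 and naive values were close. Cyp20a1, a cytochrome P450 gene, had 4.93 in Treg, 10.1 in Th1 and 3.98 in naive (chromosome 1, 60428120 to 60428552).

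The top 300 regions were longer than the rest. Their median length was 317 bp (interval 307 to 327), with quartiles of 274.5 and 367 bp and a range of 180 to 621 bp. The other regions had a median of 247 bp (246 to 249). A longer region can gather more reads, so length is tied to the rule. Per kb of region the mean value had a median of 16.9 in the top 300, against 12.1 in the other regions, which the choice by the mean favours, and ranked per kb only 58 of the 300 regions stayed in the top 300. The longest were exon 10 of Nadk, the NAD kinase gene, at 621 bp, with 6.34 in Treg, 5.04 in Th1 and 4.98 in naive, and an intron of Nkain1 at 607 bp, with 4.93, 5.04 and 6.97. The shortest after SNORD116 was an intron of Npas3, a neuronal transcription factor gene, at 186 bp, with 2.11, 8.40 and 4.98.

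**Figure D4:**
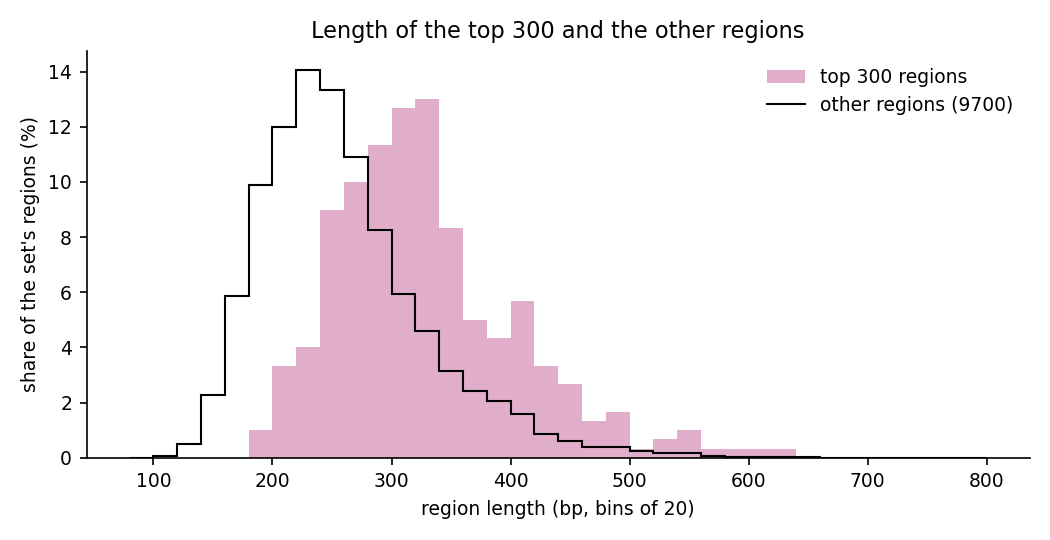
Share of regions (%, vertical axis) in 20-bp bins of region length for the top 300 regions (filled) and the other 9700 (black line). The top 300 are shifted to longer regions, with medians of 317 and 247 bp.

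In the 4 length quartiles of the table, from short to long, 0.313%, 1.25%, 2.93% and 7.57% of regions were among the top 300. In the longest quartile, from 297 to 790 bp, 54 of 476 exonic regions were members, or 11.3% (interval 8.64% to 14.5%), against 127 of 1882 intronic ones, or 6.75% (5.66% to 7.98%). In the next-longest quartile, from 250 bp, the shares were 3.96% of exonic and 2.53% of intronic regions, with overlapping intervals. Below 213 bp they were 0.253% and 0.291%. From 213 to 249 bp they were 1.31% and 1.16%, and in these 3 shorter quartiles the exonic and intronic intervals overlapped. Whether the difference between exons and introns depends on length was not tested. The CpG content of the regions was not read here.

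**Figure D5:**
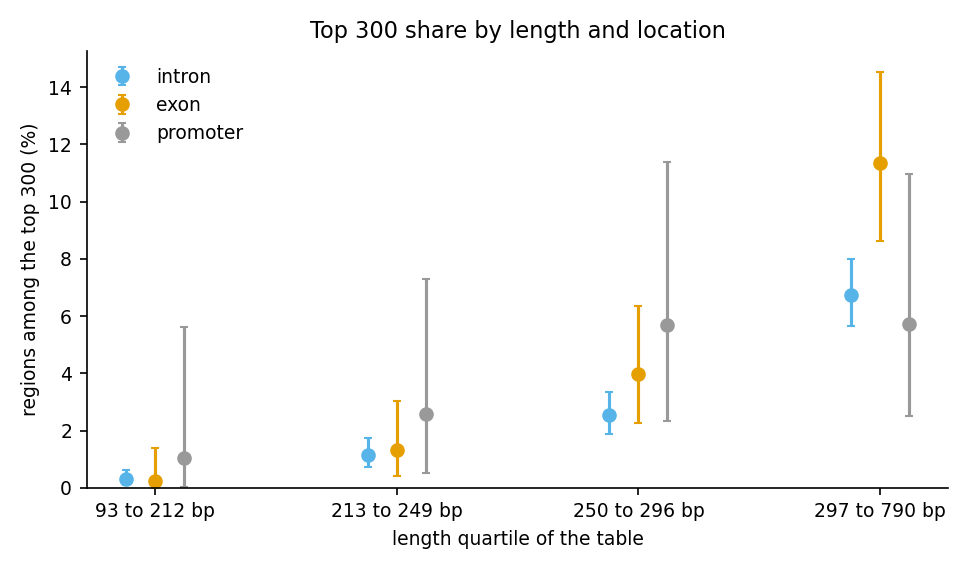
Share of regions (%) that are among the top 300, by length quartile of the table, for introns, exons and promoters; bars are exact 95% binomial intervals. The share climbs with length in introns and exons and reaches 11.3% of exonic regions in the longest quartile, and the promoter bars are wide because each holds 1 to 8 members.

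The regions were spread over the genome. Chromosome 2 held 32, or 10.7%, against 8.69% of the other regions, chromosome 1 held 27, or 9%, against 6.76%, and the X chromosome held 3, or 1.00%, against 2.03%, each within the interval of its own count. The median distance from a top region to the next top region was 2156220 bp, and 6 regions had another within 10 kb. The closest pair, 1474 bp apart, lay in the promoters of Dux and 4933403O03Rik on chromosome 10, where Dux, a double-homeobox gene of a repeated cluster, had 3.88 in Treg, 6.72 in Th1 and 7.97 in naive (57689060 to 57689464). Whether their reads match more than 1 place in the genome was not examined. To any other region of the table the median distance was 33202 bp, and 76 of the 300 had one within 10 kb.

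The 300 regions fell under 288 genes, of which 277 had 1 region, 10 had 2 and 1 had 3. Dst, the gene of the cytoskeletal linker dystonin, had the 3, all intronic, on chromosome 1 between 34053768 and 34349360. From the first to the last along the chromosome they had 2.82, 2.11 and 4.58 in Treg, 6.72, 8.40 and 10.1 in Th1, and 7.97, 5.98 and 2.99 in naive. The first was highest in naive and the last in Th1, with overlapping intervals of Th1 and naive in both. Ryr2, the cardiac ryanodine receptor gene, had 1.06 in Treg, 11.8 in Th1 and 3.98 in naive in an intron at 11777157 to 11777485 on chromosome 13, and 1.76, 5.04 and 7.97 in another at 11761621 to 11761883. The order of Th1 and naive turned round between them, with overlapping intervals of Th1 and naive in both Ryr2 regions.

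Zfp423, which had the second-largest Treg value of the 300 regions in an intron on chromosome 8 (90256079 to 90256556), with 8.11 in Treg, 5.04 in Th1 and 3.98 in naive, had 3.52, 5.04 and 6.97 in its other member region. Cdh4, the gene of R-cadherin, was alike in exon 7 and in an intron 8294 bp away, with 3.88 and 4.93 in Treg and the same 5.04 in Th1 and 5.98 in naive. The paired regions of Ankmy1 shared 8.40 in Th1 but had 0.705 and 3.17 in Treg and 6.97 and 3.98 in naive. Sdk1, a synaptic adhesion gene, placed 2 of its 25 table regions among the 300, with 8.40 and 3.36 in Th1. The other genes with a pair of regions were 2610005L07Rik, BC006965, C130026I21Rik, C530008M17Rik and Ralgps1. Of the other genes with the most regions in the table, Fgfr2 had 0 of 39 among the 300, AC114005.5 0 of 27, Park2 0 of 26, Rbms3 0 of 23 and Cdh13 0 of 21, and at 3% of all regions nothing is read from these counts.

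Of the 300 regions, 294 had a gene name that matched a RefSeq symbol or synonym. Protein-coding genes held 278, or 92.7%, against 92.8% of the other regions, and long non-coding RNA genes 10, or 3.33%, against 3.42%. Pseudogenes of both RefSeq classes, transcribed and other, held 3 each, and 6 regions had no match. By name, 22 regions lay under RIKEN clone names, or 7.33%, against 5.65% of the other regions, and 7 under Gm numbers, or 2.33%, against 3.63%. Of the first 10 regions, those of C130026I21Rik, Gm5244, 2610005L07Rik and 4930465M20Rik carry such names.

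Genes of T cell identity were counted by list, beside the 3% of all table regions that are members. Of 17 Th17 genes, 9 were represented in the table and 2 among the 300, with 2 of their 27 regions, or 7.41%. Ltb4r1, at rank 163, had 5.64 in Treg, 5.04 in Th1 and 4.98 in naive (chromosome 14, 56384919 to 56385186), an even split. Rora, which encodes a nuclear receptor of Th17 cells, had 2.47 in Treg, 10.1 in Th1 and 2.99 in naive at rank 181 (chromosome 9, 68693801 to 68694112), with Th1 ahead. The Th1 interval of Rora (3.70 to 22.0) overlaps those of Treg and naive. Of 15 Th1 genes, 5 had a region and 1 of their 6 regions, or 16.7%, was a member. It lay in Stat4, the transcription factor activated by interleukin 12, with 5.29 in Treg, 8.40 in Th1 and 5.98 in naive in an intron at rank 20 (chromosome 1, 52098381 to 52098784).

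Of 15 naive T cell genes, 7 had a region and 1 of their 11 regions, or 9.09%, was a member. It lay in Actn1, an actin crosslinker gene, with 4.23 in Treg, 5.04 in Th1 and 5.98 in naive (chromosome 12, 81302911 to 81303217). Of 24 listed cytokine receptor genes, 9 had a region and 1 of their 16 regions, or 6.25%, was a member. It lay in exon 3 of Eng, an accessory receptor for TGF-beta, with 5.64 in Treg, 5.04 in Th1 and 7.97 in naive (chromosome 2, 32524915 to 32525257). Of 18 imprinted genes, 6 had a region and 1 of their 14 regions, or 7.14%, was a member, that of SNORD116. There were 0 members among 4 regions of Treg genes, 7 of Th2 and Tfh genes, 10 of T cell receptor signalling genes, 9 of adhesion and migration genes, 13 of DNA methylation and chromatin genes, 18 of B cell genes, 5 of myeloid genes and 24 of Wnt pathway genes. The Wnt pathway list did not include Wnt5b, Wnt11 or Kremen1. Il28ra was missing from the cytokine receptor list and Mbd5 from the DNA methylation and chromatin list, though both had a member region. Over all their table regions, the median mean value of these 13 lists ran from 2.87 to 3.77, against 3.06 in the whole table, and nothing particular to a list is read from the counts.

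Larger families were counted by gene name, so family members under other names are not in these counts. Solute carriers, membrane transporters, held 12 of the 300 regions, or 4% (interval 2.08% to 6.88%), against 2.08% of the other regions. Slc38a9 led them with 3.52 in Treg, 10.1 in Th1 and 6.97 in naive (chromosome 13, 113482472 to 113482734), followed by Slc41a2, Slc22a3 and Slc38a5, each with 8.40 in Th1. Zfp zinc finger genes held 6, or 2.00%, against 1.02%. Of these Zfp827 had 3.88 in Treg, 10.1 in Th1 and 3.98 in naive, while Zfp334 had 4.58, 5.04 and 6.97. Regulators of small GTPases held 3, or 1.00%, against 1.95%: Arhgap22, Asap1 and Arhgap18. Potassium, sodium and calcium channel genes held 5, or 1.67%, against 2.06%, led by Ryr3, a ryanodine receptor gene, with 3.17 in Treg, 6.72 in Th1 and 6.97 in naive. Cadherins held 3, or 1.00%, against 0.79%. The names listed as collagens and metalloproteases held 3, or 1.00%, against 1.06%, namely Adamtsl2, Col24a1 and Col5a2. That list did not include Mep1a, a metalloprotease gene that also had a member region. Each family's share of the other regions lay inside its interval, except the solute carriers', which lay marginally below it.

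Further members were chosen for description after their values were seen. Wnt5b, a secreted Wnt ligand gene, had 5.64 in Treg, 10.1 in Th1 and 3.98 in naive in an intron at rank 19 (chromosome 6, 119421610 to 119422096). Its order of Th1 and naive was the reverse of that in Wnt11. The Th1 intervals of Wnt5b and Wnt11 overlap, and so do their naive intervals. Kremen1, a receptor gene for Dickkopf inhibitors of Wnt signalling, had 2.82, 10.1 and 2.99. Among genes of glutamate signalling, Grin2b and Gria2, which encode receptor subunits of the NMDA and AMPA classes, had 4.23 and 1.41 in Treg, 6.72 and 10.1 in Th1, and 5.98 and 4.98 in naive. Grik5, a kainate receptor subunit gene, had 3.88 in Treg, 10.1 in Th1 and 3.98 in naive. The axon guidance receptor genes Dcc, Unc5a and Epha6 had Treg values of 2.82, 5.29 and 5.29, Th1 values of 8.40, 8.40 and 6.72 and naive values of 6.97, 2.99 and 5.98.

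Among genes of immune cells in this group, P2rx7, the ATP-gated channel gene, had 5.99 in Treg, 6.72 in Th1 and 1.99 in naive in its promoter (chromosome 5, 123093087 to 123093545). Il28ra, a receptor chain for interferon lambda, had 2.11 in Treg, 10.1 in Th1 and 2.99 in naive in an intron (chromosome 4, 135256834 to 135257049). Pstpip1, a cytoskeletal adaptor gene of leukocytes, had 3.52, 10.1 and 2.99 in exon 2 (chromosome 9, 55971449 to 55971912). Th1 was ahead in Il28ra and Pstpip1, from 6 reads each, while naive was the low library in P2rx7, with 2 reads. In each of these regions the intervals of the libraries overlap. Mbd5, a gene named for its methyl-CpG-binding domain, had 5.99 in Treg, 6.72 in Th1 and 3.98 in naive in an intron (chromosome 2, 48948635 to 48948933).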

How the data were processed

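Per the labels' protocols, methylated DNA of sorted cells was isolated by MethylCap, and 250 ng entered a library whose fragments were sized at 250 to 350 bp. Bowtie 0.12.7, FastQC and mm9 are named, per the submitters' processing notes; region calling, choice and scaling are not stated there. For each library the deposited signal divides by a single constant into whole reads in 100% of Treg, Th1 and naive values (relative tolerance 1e-06), so reads were recovered by division. The sources do not state this scaling; the naive constant, 0.996, lies so near 1 that its read counts rest on the values alone, and naive intervals depend on it. The authors' file also has a distance score for promoter regions, used as an offset. All Th17 values are 0.

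Regions were ranked by the plain mean of the 3 values in Python 3.11.15 (pandas 2.3.3, SciPy 1.17.1). No test between populations was possible with 1 library each. The code for recovering reads, ranking regions and forming left-out ratios was tested on simulated data with top regions raised in all 3 libraries. The simulated raise was far larger than the left-out ratios found here, so ratios of that size were not tested. The intervals were not tested in this way. The members and gene lists were chosen with earlier results of these data known. Named regions follow fixed ranks, extremes, multi-region genes and list members (at most 4 per list), except where the text says otherwise. Gene names were matched to RefSeq (GRCm38.p6), for names and promoter windows only. Alternatives were other rankings and scalings, 100 or 600 regions, value per kb, other thresholds and pseudocounts and, added after the data were examined, ranking without RIKEN, Gm, small RNA and pseudogene names.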

Additional observations from a re-analysis of the deposited data

How the results depend on the processing

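No paired analysis was possible because each population had 1 library, and no replicate could be left out. Of 131 values recomputed for 18 results, 67 moved less than their counting interval (gene counts, less than 1.5 times), 63 moved further and 1 reversed. Each share was labelled alone, so a change in the order of a higher and a lower share does not count as reversed. Treg was higher than naive in 4.33% and lower in 21%, but in 15% and 6% under summed reads and 10.7% and 7% under equal table totals. Treg was higher than Th1 in 1.33% and lower in 43%, but in 13% and 11.3% under summed reads. Membership depended most on length and on read weights: 284 of the 300 regions stayed under equal table totals, 234 under the geometric mean, 165 under summed reads and 58 under value per kb, with 269 when RIKEN, Gm, small RNA and pseudogene names were left out.

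The percentages in order of mention below are of the top regions. The matching shares of the whole table were not computed under these alternatives, so nothing about the cell types is read from them. Under the geometric mean, Treg, Th1 and no library led 0%, 20.3% and 75%; Treg was 2-fold higher than naive in 0.667% and lower in 12.7%, Th1 was higher than naive in 15.7% and Treg lower than Th1 in 29.3%. Under summed reads, Treg, Th1 and no library led 8.67%, 11.7% and 72%; Treg was higher than naive in 15.0% and lower in 6%, Th1 was higher than naive in 21% and lower in 12.3%, Treg was higher than Th1 in 13.0% and lower in 11.3%, and the median length was 328 bp. Under equal table totals, naive and no library led 2.00% and 62.3%; Treg was higher than naive in 10.7% and lower in 7%, Th1 higher than naive in 34.0% and Treg lower than Th1 in 25%.

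With 100 regions, Treg and naive led 0% and 9%, Treg was higher than naive in 0%, the median length was 339 bp, the genes numbered 98, and the left-out ratios were 1.17 for Treg and 1.24 for Th1. With 600, Th1 led 32.7%, the median length was 302 bp, the genes numbered 556, and the ratios were 1.03 and 0.928. Under value per kb, Treg, Th1 and naive led 0%, 21.7% and 16.7%; Treg was higher than naive in 0.667% and lower in 32.7%, and Th1 higher in 15.0% and lower in 11.7%; introns held 77.0%, exons 16.7%, the median length was 173 bp, and the left-out ratios were 0.756 for Treg (reversed), 0.598 for Th1 and 0.780 for naive.

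With a pseudocount of 5, Treg was higher than naive in 0% and lower in 1.67%, Th1 higher in 5.33% and lower in 1.33%, and Treg higher than Th1 in 0% and lower in 9.33%. At 1.5-fold, Treg was higher than naive in 10.3% and lower in 35.7%, Th1 higher in 48.7% and lower in 9.33%, and Treg lower than Th1 in 71.7%. At 60% of the sum, Treg, Th1, naive and no library led 0%, 13.0%, 1.00% and 86.0%. Without the RIKEN, Gm, small RNA and pseudogene names, Treg led 0%. The causes of these shifts were not tested. Few reads per region, 4 in Th1 and 5 in naive at the median of the top 300, limit every value named.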
